A study of Mus musculus with 12 samples.

Results

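At 672 of 55385 promoter windows of the embryonic mouse forebrain, summits of the repressive histone mark H3K27me3 and of the active histone mark H3K27ac both lay within 1 kb of the start site in wild type tissue. A window spans 2 kb around an annotated transcription start site. Its centre had to lie within 1 kb of a wild type H3K27me3 summit and within 1 kb of a wild type H3K27ac summit, a summit being the highest point of a peak in the authors' lists. Another 2872 windows had only the H3K27me3 summit, 5011 only the H3K27ac summit, and 46830 neither. The members were chosen by the wild type H3K27me3 and H3K27ac libraries. Levels of these libraries at the members, and ratios that contain them, are given as a description only. The word bivalent is mostly used for H3K4me3 with H3K27me3, and H3K4me3 is not analysed here. The promoters are therefore called promoters with both H3K27 marks.

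Forebrains of C57BL/6 mouse embryos at E12.5 were compared between EedcKO and wild type (WT) embryos, both untreated per the labels. The Eed and input libraries came from X-ChIP, chromatin immunoprecipitation after cross-linking. Those of H3K27me3, H3K27ac, RNA-Pol2 (RNA polymerase II) and IgG, a control antibody, came from CUT&Tag, in which an antibody directs a transposase to cut nearby DNA. Each genotype had a single library per target, 12 in all, so every difference below lacks replicates and was not tested. The sources used here do not state the Cre driver of EedcKO, which part of Eed was deleted, or the number and sex of the embryos.

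Eed is the subunit of Polycomb repressive complex 2 (PRC2) that recognises H3K27me3 and without which the complex does not methylate lysine 27 of histone H3. The same lysine can instead be acetylated by CBP and p300, so 1 histone tail cannot carry both marks. In bulk tissue, reads of both marks in 1 window can come from different nucleosomes, alleles or cells, and these cannot be told apart here. RNA-Pol2 transcribes protein-coding genes and collects near their start sites. In the developing forebrain, PRC2 is known for silencing regulators of other lineages and later stages, while genes of progenitors and neurons carry acetylation.

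Promoter counts totalled 948955 to 3842779 per library, and every member held at least 4 reads in every library. The H3K27 labels of EedcKO are in doubt, because the library labelled EedcKO H3K27ac resembled the WT H3K27me3 library. Across the 672 members, Pearson's r of log2 RPKM was 0.92 between these libraries, against -0.18 between the library labelled EedcKO H3K27ac and WT H3K27ac. The library labelled EedcKO H3K27me3 had r = 0.65 with WT H3K27ac and 0.87 with WT RNA-Pol2, against -0.10 with WT H3K27me3. Member windows that overlap share reads, and with 1 window for each of the 528 separate loci the first of these values was again 0.92. Both WT marks chose the members, so r across the members is a description. Over all 55385 windows, the library labelled EedcKO H3K27ac had r = 0.94 with WT H3K27me3 and 0.68 with WT H3K27ac. There the library labelled EedcKO H3K27me3 had r = 0.87 with WT H3K27ac, 0.93 with WT RNA-Pol2 and 0.74 with WT H3K27me3. With EedcKO IgG it had r = 0.87. Both H3K27 libraries of EedcKO are therefore called by their labels only. The promoter window of Eed itself held 40 reads in the EedcKO Eed library and 121 in the WT Eed library, beside 19 reads in EedcKO input and 27 in WT input. Since the deletion is not located, these reads do not test the genotype. Of 7 forebrain marker genes, 5 had a WT H3K27ac summit, among them Emx2, Sox2, Neurog2 and Tubb3. An RNA-Pol2 summit stood at 1 of the 7 in WT and at 6 in EedcKO, and a WT H3K27me3 summit at 3. Of 16 marker genes of endothelium, microglia, erythroid cells and mesenchyme, only Col1a1 had a WT H3K27ac summit. None of the 16 had an RNA-Pol2 summit in either genotype. A WT H3K27me3 summit stood at 2 endothelial markers and 1 mesenchyme marker. The RNA-Pol2 sum over the 4 markers of each of these 4 types ranged between 22.5 and 40.6 RPKM in EedcKO and between 29.6 and 52.2 RPKM in WT, and no marker was at 0. Over the 7 forebrain markers, the sum was 135 RPKM in EedcKO and 83.4 RPKM in WT. The number of genes differs, so these sums are not set against those of the other types. Single forebrain markers had 9.76 to 31.5 RPKM in EedcKO and 3.22 to 20.1 RPKM in WT. Single markers of the other 4 types had 0.781 to 18.0 RPKM in EedcKO and 1.61 to 22.6 RPKM in WT, so the ranges overlapped.

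RefSeq promoter sequences (assembly GRCm38.p6, 250 bases before to 50 after the RefSeq start) show what the members look like. The first 2 below belong to forebrain transcription factors, the next 3 to members high in joint signal, in H3K27ac or in Eed, and the last to the member with the lowest RNA-Pol2 ratio. Capitals mark CpG dinucleotides, the sequence that DNA methylation acts on in mammals.
Sox2, chr3:34649745-34650044, plus strand: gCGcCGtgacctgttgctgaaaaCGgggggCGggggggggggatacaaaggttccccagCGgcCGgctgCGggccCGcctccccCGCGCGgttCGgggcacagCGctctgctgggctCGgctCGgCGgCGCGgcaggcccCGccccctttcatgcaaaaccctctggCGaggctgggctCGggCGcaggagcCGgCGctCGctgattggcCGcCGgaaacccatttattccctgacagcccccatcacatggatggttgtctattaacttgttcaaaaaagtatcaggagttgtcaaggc
Emx1, chr6:85187681-85187980, plus strand: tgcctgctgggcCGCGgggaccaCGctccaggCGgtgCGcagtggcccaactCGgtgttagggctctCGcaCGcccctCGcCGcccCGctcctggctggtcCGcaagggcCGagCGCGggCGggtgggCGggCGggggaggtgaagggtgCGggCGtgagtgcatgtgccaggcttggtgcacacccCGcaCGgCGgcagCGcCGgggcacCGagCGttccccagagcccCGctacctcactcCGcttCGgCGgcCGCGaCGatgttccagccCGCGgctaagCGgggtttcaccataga
Rassf1, chr9:107551305-107551604, plus strand: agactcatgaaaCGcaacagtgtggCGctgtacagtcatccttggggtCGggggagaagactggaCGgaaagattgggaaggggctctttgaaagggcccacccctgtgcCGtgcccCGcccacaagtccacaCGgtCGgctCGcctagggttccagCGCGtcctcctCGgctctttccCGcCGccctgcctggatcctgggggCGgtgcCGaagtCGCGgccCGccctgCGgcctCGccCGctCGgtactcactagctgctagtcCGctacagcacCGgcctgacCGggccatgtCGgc
Mex3b, chr7:82867083-82867382, plus strand: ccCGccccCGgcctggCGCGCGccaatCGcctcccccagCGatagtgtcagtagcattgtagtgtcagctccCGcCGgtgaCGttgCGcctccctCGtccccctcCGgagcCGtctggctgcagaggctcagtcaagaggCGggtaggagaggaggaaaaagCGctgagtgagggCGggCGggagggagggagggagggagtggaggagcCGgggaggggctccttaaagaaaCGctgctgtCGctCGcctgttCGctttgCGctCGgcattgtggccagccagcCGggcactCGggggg
Sema4c, chr1:36558332-36558631, minus strand: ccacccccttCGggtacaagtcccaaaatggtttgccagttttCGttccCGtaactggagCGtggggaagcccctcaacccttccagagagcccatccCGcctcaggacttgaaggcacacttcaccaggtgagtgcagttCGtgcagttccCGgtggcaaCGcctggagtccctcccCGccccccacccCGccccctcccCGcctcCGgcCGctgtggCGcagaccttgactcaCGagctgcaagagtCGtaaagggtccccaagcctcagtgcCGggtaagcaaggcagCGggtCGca
Plcb2, chr2:118728389-118728688, minus strand: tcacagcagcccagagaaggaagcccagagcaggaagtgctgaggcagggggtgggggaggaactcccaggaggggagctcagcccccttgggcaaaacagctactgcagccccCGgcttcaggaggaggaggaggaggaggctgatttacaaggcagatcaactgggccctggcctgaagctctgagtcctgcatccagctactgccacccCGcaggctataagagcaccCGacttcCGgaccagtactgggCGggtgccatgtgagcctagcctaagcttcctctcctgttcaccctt
The RefSeq start lay 410 bp from the window centre for Sox2, 493 bp for Emx1 and 32 bp for Sema4c, and at the centre for Rassf1, Mex3b and Plcb2. Emx1 had 37 CpGs in 300 bases, Sox2, Rassf1 and Mex3b 27 each, Sema4c 19 and Plcb2 only 5.

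Most member promoters with a sequence were CpG-rich, and their CpG measures lay between those of the classes with 1 mark. Of 489 members matched by symbol, chromosome and strand, 310 had a RefSeq start within 50 bp of the window centre and entered the sequence counts. Their median CpG count was 23 at the members, against 19 at windows with H3K27me3 only, 24 with H3K27ac only and 12 over all promoters. The ratio of observed to expected CpG had a median of 0.78 at the members, 0.68 with H3K27me3 only, 0.83 with H3K27ac only and 0.55 over all promoters. It was at least 0.6 at 82.9% of the members and at 46.7% of all promoters. Median GC content was 64.3% at the members, against 63.7% with H3K27me3 only, 62.3% with H3K27ac only and 55.7% over all promoters, so it was highest at the members by a small margin. These sequence measures were not used by the rule.

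Core promoter motifs were searched on both strands of the same 300 bases. The GC box GGGCGG, which Sp1 family factors bind, was in 78.7% of member promoters, 69.4% with H3K27me3 only, 70.7% with H3K27ac only and 45.3% of all promoters. It is in all 6 sequences shown. The CCAAT box CCAAT was in 44.2% of members and 39.9% of all promoters. The TATA box TATAAA was in 7.42% of members and 12.6% of all promoters. The ETS factor motif CCGGAAGT, common in housekeeping promoters, was in 6.45% of members, 1.42% with H3K27me3 only, 12.1% with H3K27ac only and 5.55% of all promoters. The E-box CACGTG was in 7.74% of members and 8.24% of all promoters. The GC box can overlap CpGs that are counted above, and a match is a description of letters only.

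The members were mostly protein-coding genes and were often paired with a neighbour. Of the 672 windows, 550 (81.8%) belonged to protein-coding genes, against 38.4% of all windows, 52 to lncRNAs and 10 to miRNAs, and 56 matched no RefSeq gene type. They carried 671 symbols, with Ddit3 listed at 2 windows, and formed 528 separate loci, of which 135 held 2 or 3 overlapping or neighbouring member windows. A start site on the opposite strand lay within 1 kb of 39.3% of the members, against 20.4% of windows with H3K27me3 only, 43.7% with H3K27ac only and 12% of all windows. In such pairs, for example Kifc2 and Cyhr1, Tubg1 and Retreg3 or Slx4ip and Mkks, the same reads are counted for both genes. Chromosome 7 held 77 members and chromosome 2 held 62, and the share of windows that were members was highest on chromosome 19, at 2.80%. The X chromosome held 1 member, Rab33a, of 2624 windows.

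A few members were regulators and marker genes of the forebrain. Of 21256 protein-coding windows 2.59% were members. Of 29 cortical progenitor regulators 3 (10.3%) were members (among them Sox2 and Emx1), of 31 cortical neuron genes 2 (Tle4 and Tubb3), of 28 ventral forebrain and interneuron genes 1 (Gad2), and of 37 hem, choroid plexus and secreted signal genes 1 (Fgf18). None of 39 Hox genes, 41 midbrain, hindbrain and spinal cord regulators, 65 non-neural lineage regulators, 21 neurogenic genes, 32 Polycomb subunits or 41 imprinted genes was a member. Of the 41 midbrain, hindbrain and spinal cord regulators 13 (31.7%) had an H3K27me3 summit only, and of the 39 Hox genes 4 (10.3%), beside 10.1% of all protein-coding windows. This was not particular to regulators from outside the forebrain. The share was 34.5% for the cortical progenitor regulators, 38.7% for the cortical neuron genes and 46.4% for the ventral forebrain and interneuron genes. It was 48.6% for the hem, choroid plexus and secreted signal genes, 28.6% for the neurogenic genes and 29.2% for the non-neural lineage regulators. Among signalling and adhesion genes, members were 5 of 80 axon guidance genes (Ephb3, Ephb4, Plxnc1, Robo2 and Sema4c), 5 of 111 extracellular matrix genes (Adamts18, Col11a2, Col18a1, Col2a1 and Spock2) and 3 of 164 channel genes (among them Kcnab2 and Kcnn1). Of 25 Notch pathway genes 1 was a member (Nrarp), and of 81 ribosomal protein genes 3 (Rpl22, Rps15 and Rps19), while 43 of these 81 (53.1%) had an H3K27ac summit only, beside 19.1% of all protein-coding windows. These lists are small, and none was tested.

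The members carried H3K27ac at a level close to that of windows with H3K27ac only, and H3K27me3 at a level between both classes with 1 mark. Levels are reads per kb of window scaled by the library's total of promoter reads (RPKM). Median WT H3K27ac was 26.5 RPKM at the members, against 24.4 RPKM with H3K27ac only and 12.3 RPKM with H3K27me3 only. Median WT H3K27me3 was 15.8 RPKM at the members, against 6.96 RPKM with H3K27ac only and 31.8 RPKM with H3K27me3 only. WT H3K27ac was above WT H3K27me3 in RPKM at 545 members (81.1%), beside 67.5% of all windows, 98.8% with H3K27ac only and 10.4% with H3K27me3 only. This share moves with the scaling between both libraries. Against WT IgG, whose member median was 9.20 RPKM, H3K27ac was at least 2-fold higher at 542 members (80.7%, beside 15.6% of all windows) and H3K27me3 at 271 (40.3%, beside 7.88% of all windows). Both marks reached this level at 234 members (34.8%, beside 2.42% of all windows), and neither did at 93. The rule used both marks, so nothing is read from these shares. The authors' score of the H3K27me3 summit, a peak strength, had a median of 6.20 at the members and 15.7 with H3K27me3 only, and that of the H3K27ac summit 6.27 at the members and 6.15 with H3K27ac only.

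**Figure D1:**
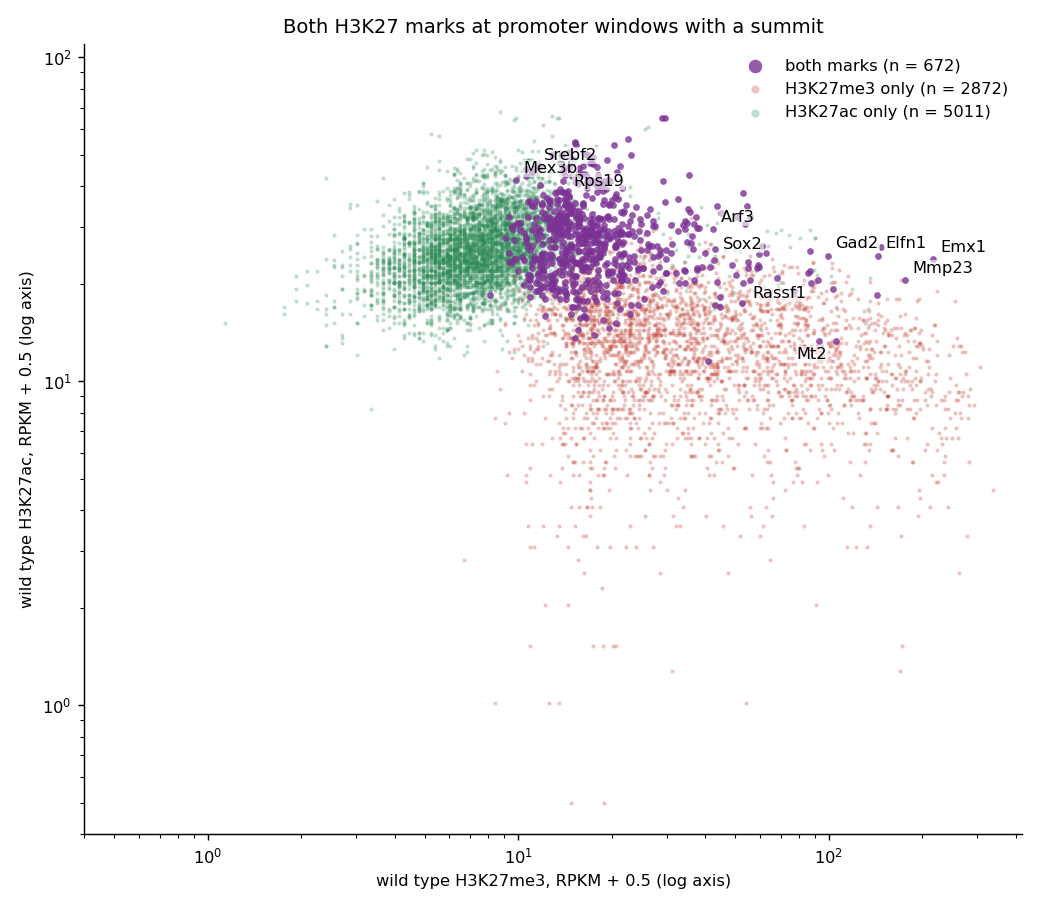
WT H3K27me3 (x axis) and WT H3K27ac (y axis) at single promoter windows, both in RPKM plus 0.5 on log axes. Purple points are the 672 members, red points the 2872 windows with an H3K27me3 summit only and green points the 5011 with an H3K27ac summit only. The members lie at the height of the green points and reach to the right, with Emx1 farthest.

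The 12 members with the highest smaller ratio of either mark to IgG included Sox2, Arf3, Kifc2, Rassf1, Rps19, Asxl3, Copz1, Icmt, Cyhr1, Mypop and Cbx3. Sox2 (window chr3:34649405-34651404), a transcription factor of neural progenitors, held 267 H3K27me3 and 90 H3K27ac reads in WT, beside 8 reads in WT IgG. Its few IgG reads enter this ranking. Rps19 (chr7:24883371-24885370), a protein of the small ribosomal subunit, held 87 H3K27me3 and 146 H3K27ac reads, beside 9 in WT IgG. Cbx3 (chr6:51469360-51471359), which encodes the heterochromatin protein HP1 gamma, held 119 H3K27me3 and 123 H3K27ac reads, beside 14 in WT IgG. Asxl3, an Additional sex combs family gene, held 161 H3K27me3 and 110 H3K27ac reads, beside 18 in WT IgG. Rassf1, a Ras-association gene, held 331 H3K27me3 and 76 H3K27ac reads, beside 13 in WT IgG.

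The balance of both marks ran over a wide range, and the ends held different genes. The log2 ratio of H3K27ac to H3K27me3 RPKM in WT was lowest at Emx1 (-3.18), followed by Mmp23, Mt2, Ripk4 and Elfn1 (-2.56). Emx1 (chr6:85186438-85188437), a homeobox gene of the dorsal telencephalon, held 91 H3K27ac reads and 1370 H3K27me3 reads, the most of any member. Mmp23, a matrix metalloproteinase gene, held 78 H3K27ac and 1109 H3K27me3 reads, and Mt2, a metallothionein gene, 50 and 665. Gad2, which encodes a GABA-synthesising enzyme of interneurons, held 93 H3K27ac and 626 H3K27me3 reads. At the other end stood Mex3b (2.09), Slx4ip, Srebf2, Mkks and Slc35e2 (1.98). Mex3b (chr7:82866333-82868332), an RNA-binding protein gene, held 161 H3K27ac and 59 H3K27me3 reads, with 33 reads in WT IgG. Srebf2, the transcription factor of sterol synthesis, held 176 and 69 reads of these marks. WT RNA-Pol2 reads were 112 at Emx1, 245 at Mmp23, 56 at Mt2, 46 at Ripk4 and 77 at Elfn1. At the other end they were 229 at Mex3b, 130 at Slx4ip, 152 at Srebf2, 133 at Mkks and 124 at Slc35e2. Of the 5 promoters with the lowest ratio, 4 thus held fewer WT RNA-Pol2 reads than each of the 5 with the highest, and Mmp23 held more.

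**Figure D2:**
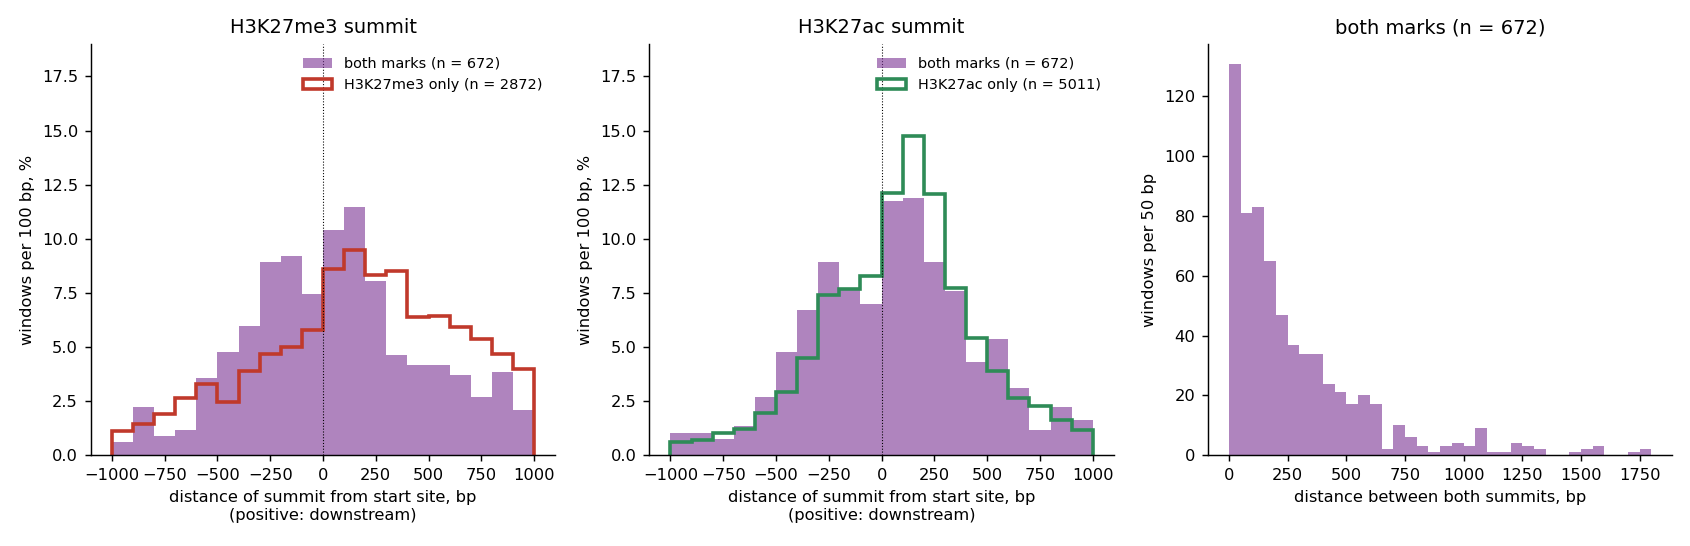
Distance of the WT H3K27me3 summit (left) and WT H3K27ac summit (middle) from the start site, in bp with positive values downstream, as the share of windows per 100 bp. Purple bars are the members and lines the windows with 1 mark only. The right plot gives the distance between both summits at the 672 members, with a median of 181 bp.

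The summits of both marks lay close to each other around the start site. The median distance between them was 181 bp (65 to 390 bp from the lower to the upper quartile), and at 304 members (45.2%) it was at most 150 bp. The rule sets an upper limit of 2000 bp, and the largest distance was 1771 bp, at Kcnn1. The H3K27me3 summit lay downstream of the start at 55.2% of the members, with a median of 52 bp, against 67.6% and 196 bp at windows with H3K27me3 only. The H3K27ac summit lay downstream at 57.7% of the members, with a median of 70 bp, against 63.6% and 109 bp with H3K27ac only. Both lay on the same side of the start at 494 members, downstream at 291 and upstream at 203. At Man1c1 and Nrarp both summits had the same position, while at Sox2 the H3K27me3 summit lay 637 bp downstream and the H3K27ac summit 953 bp upstream. Just inside the distance rule, the larger of both distances was 991 bp at Dedd2, 985 bp at Ppp4r4 and 984 bp at Kcnn1. Just outside it was 1001 bp at Fam181b, 1009 bp at Blvrb and 1023 bp at Marveld1. WT H3K27me3 reads were 101 at Dedd2, 131 at Ppp4r4 and 175 at Kcnn1 inside the limit, and 175 at Fam181b, 273 at Blvrb and 223 at Marveld1 outside it. WT H3K27ac reads were 112, 110 and 93 inside the limit and 127, 118 and 65 outside it, in the same order. In these 6 windows H3K27me3 was thus no lower outside the limit than inside it, and H3K27ac overlapped.

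**Figure D3:**
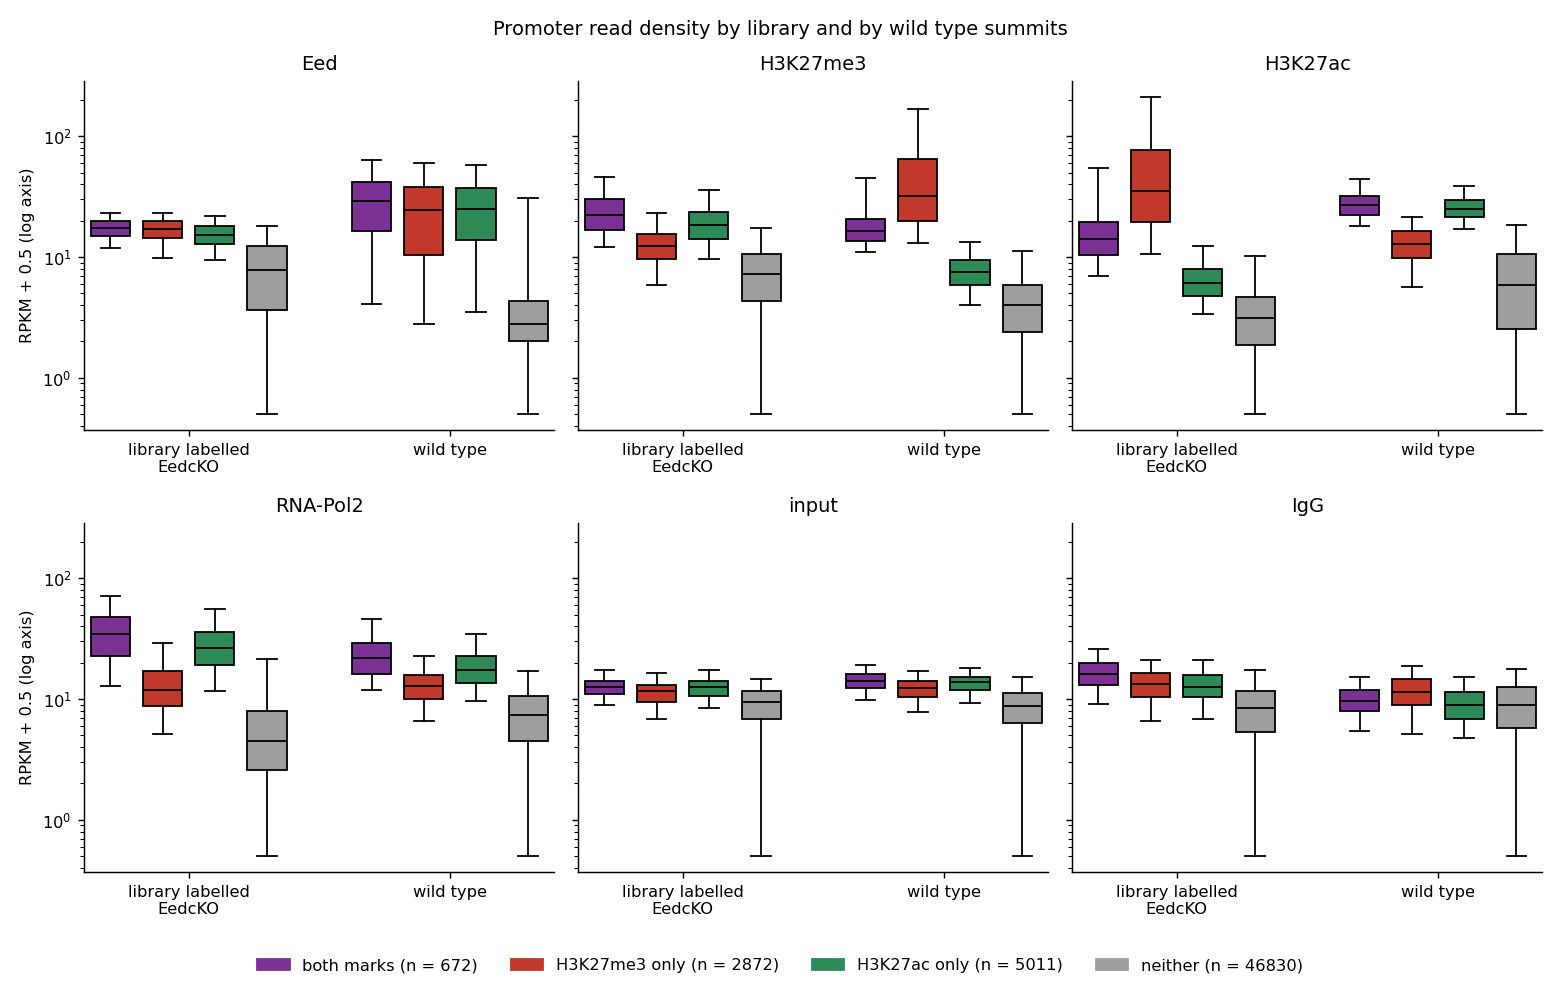
RPKM plus 0.5 (log axis) in each of the 12 libraries, with the library labelled EedcKO left and wild type right in every plot. Boxes give the median and quartiles and whiskers leave out the outermost 5% at each end for the members (purple), H3K27me3 only (red), H3K27ac only (green) and neither (grey). WT Eed at the members, with a median of 28.4 RPKM, is close to that at the windows with 1 mark, and EedcKO RNA-Pol2 is highest at the members.

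Eed lay on most of these promoters in WT. A WT Eed summit stood within 1 kb of 601 members (89.4%, beside 29.1% of all windows), close to the 88.7% of windows with H3K27ac only and above the 81.9% with H3K27me3 only. Median Eed was 16.9 RPKM at the members in EedcKO and 28.4 RPKM in WT. Input had 12.1 RPKM in EedcKO and 13.7 RPKM in WT. Relative to the median window, WT Eed over input had a median log2 ratio of 2.32 at the members, against 2.29 with H3K27me3 only and 2.21 with H3K27ac only. On this relative scale it was at least 2-fold higher than input at 564 members (83.9%, beside 28.4% of all windows). By library totals the median window stood at -1.32 in log2, so the relative scale lifts the WT ratios. Without this shift the member median was 0.99. In EedcKO, where the median window stood at -0.02, the relative median was 0.48 at the members. There 64 members (9.52%, beside 5.16% of all windows) were at least 2-fold over input.

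Eed signal was lower in EedcKO at most members. The median window moved by 0.88 in log2 between both Eed libraries scaled by their totals, and ratios are given relative to it. The median relative log2 ratio of EedcKO to WT was -1.61 at the members, against -1.39 with H3K27me3 only and -1.64 with H3K27ac only. At least 2-fold lower were 483 members (71.9%, beside 30.0% of all windows tested) and at least 2-fold higher were 36 (5.36%, beside 22.6%). Scaled by library totals alone, 251 members were at least 2-fold lower and 72 higher. The shares of all windows with this scaling were not computed, so these counts do not compare the members with other windows. With input taken off each log2 ratio, 513 were lower (76.3%, beside 39.8%) and 25 higher (3.72%, beside 14.2%). This difference was not set to the median window again, and its median over all windows was -0.51, so its counts lean to the lower side. An EedcKO Eed summit stood at 192 members (28.6%, beside 9.40% of all windows), 177 of which also had a WT Eed summit.

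Named promoters were chosen at both ends of WT Eed over input. WT Eed is also in the ratio of EedcKO to WT, so the direction of that ratio at these promoters is a description of the choice. The highest WT Eed over input lay at Cpeb2, Man1c1, Snap91, Tnrc6c and Sema4c. Cpeb2, a gene of translation control, held 53 Eed reads in EedcKO and 272 in WT, beside 24 input reads in EedcKO and 14 in WT. Sema4c, a semaphorin gene of axon guidance, held 71 Eed reads in EedcKO and 286 in WT, beside 18 and 20 input reads. Snap91, which encodes a clathrin assembly protein of synapses, held 37 Eed reads in EedcKO and 250 in WT, and its relative log2 ratio was -3.15 (exact 95% interval -3.73 to -2.69). Intervals of single windows cover counting error only. At the other end, Eed stood at or below input in WT at Slc16a13, Yif1a, Hexim1, Copz1 and Rnf5. Slc16a13, a monocarboxylate transporter family gene, held 55 Eed reads in EedcKO and 14 in WT, beside 30 input reads in EedcKO and 37 in WT. Hexim1, an inhibitor of the elongation kinase P-TEFb, held 43 Eed reads in EedcKO and 15 in WT. Sox6, a SoxD transcription factor gene, held 48 Eed reads in EedcKO and 11 in WT, beside 25 input reads in EedcKO and 28 in WT. It held 349 H3K27me3 reads in WT, so its H3K27me3 signal stood without Eed reads above input. Across the members, r between WT Eed and WT H3K27me3 was 0.07 and between WT Eed and WT H3K27ac 0.13 (log2 RPKM, n = 672 windows). Over all 55385 windows these values were 0.64 and 0.68. Both marks chose the members, which limits their range there, so the values across the members are a description only.

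RNA-Pol2 was on the members in WT more often than on windows with 1 mark. A WT RNA-Pol2 summit stood at 358 members (53.3%, beside 4.92% of all windows), against 31.8% with H3K27ac only and 3.76% with H3K27me3 only. Overlapping windows can share a summit, and with 1 window per locus the share was 49.1%. Median RNA-Pol2 was 33.8 RPKM at the members in EedcKO and 21.5 RPKM in WT. Windows with H3K27ac only had 26.0 RPKM in EedcKO and 16.9 RPKM in WT, and windows with H3K27me3 only 11.5 and 12.3 RPKM. Relative to the median window, WT RNA-Pol2 was at least 2-fold over IgG at 472 members (70.2%, beside 15.3% of all windows), and EedcKO RNA-Pol2 over IgG at 560 (83.3%, beside 23.4%). By library totals, the median window of these ratios stood at -0.22 in WT and -0.63 in EedcKO. In WT, 329 members had summits of both Eed and RNA-Pol2, 272 of Eed only, 29 of RNA-Pol2 only and 42 of neither.

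RNA-Pol2 was higher in EedcKO at the members, and so was the IgG control. An EedcKO RNA-Pol2 summit stood at 592 members (88.1%, beside 19.7% of all windows), 353 of which had one in WT too. The EedcKO list held 25930 summits and the WT list 3716. The median relative log2 ratio of RNA-Pol2 was 1.0 at the members, 1.01 with H3K27ac only and 0.38 with H3K27me3 only. At least 2-fold higher in EedcKO were 336 of 672 members (beside 12.2% of all windows tested) and at least 2-fold lower 0 (beside 7.86%). The relative log2 ratio of EedcKO IgG to WT IgG was itself 0.81 in the median at the members, 0.54 with H3K27ac only and 0.22 with H3K27me3 only, and 240 members (35.7%, beside 7.33%) had at least 2-fold more IgG in EedcKO. With the IgG ratio taken off, the RNA-Pol2 median was 0.22 at the members and 0.47 with H3K27ac only. Then 57 members (8.48%, beside 11.4% of all windows) were at least 2-fold higher and 13 (1.93%, beside 8.75%) lower. With IgG RPKM subtracted from both libraries, 74 members were at least 2-fold higher and 71 lower. Scaled by library totals alone, which moved the median window by -0.41, 52 members were at least 2-fold higher and 0 lower. For the subtraction and for library totals, shares of all windows were not computed, so these counts do not compare the members with other windows. The part of the IgG signal in the RNA-Pol2 difference was not tested.

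**Figure D4:**
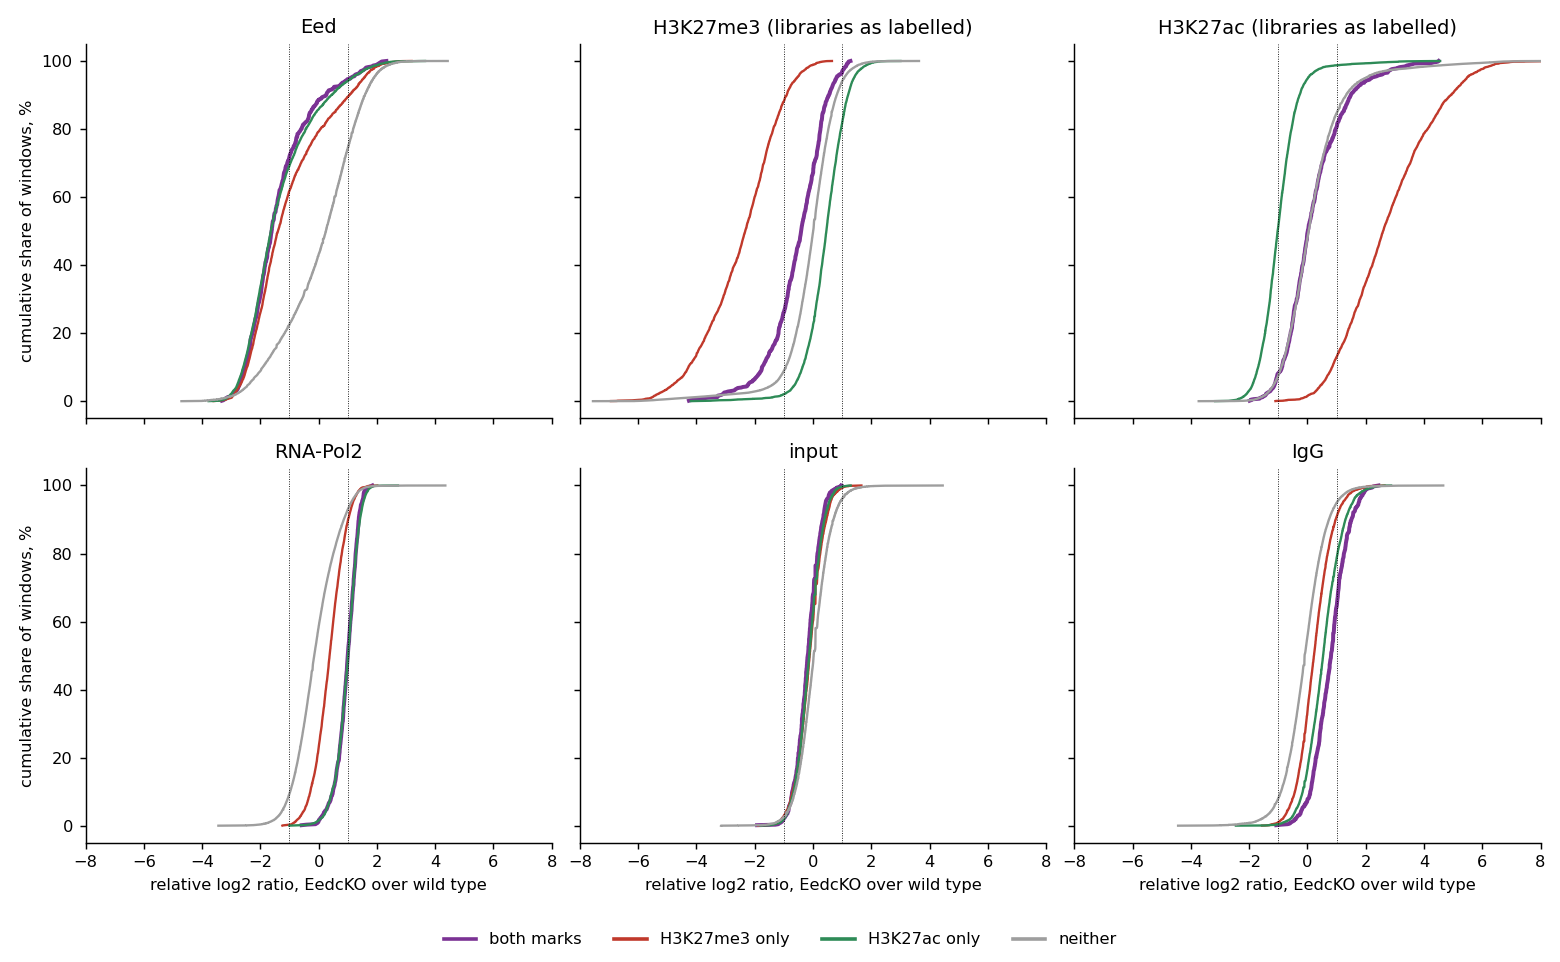
Cumulative share of windows (y axis, %) by relative log2 ratio of EedcKO to wild type (x axis) for 6 targets, for the members (purple), H3K27me3 only (red), H3K27ac only (green) and neither (grey). Dotted lines mark 2-fold. The purple RNA-Pol2 curve crosses the middle at 1.0, and the purple IgG curve is the farthest right of the 4 IgG curves, with a median of 0.81.

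Lower Eed and higher RNA-Pol2 in EedcKO coincided at a part of the members. Eed was at least 2-fold lower and RNA-Pol2 at least 2-fold higher at 256 members (38.1%, beside 8.44% of all windows). This share was close to the 39.1% of windows with H3K27ac only and above the 8.47% with H3K27me3 only. Each difference alone was common at the members, with Eed lower at 483 (71.9%) and RNA-Pol2 higher at 336 of 672. Shares this large overlap at many windows even without a link, and a link between both differences was not tested. At Cbx3 the Eed reads were 49 in EedcKO and 306 in WT, and the RNA-Pol2 reads 639 and 213, beside IgG reads of 58 and 14. At Fgf18, a fibroblast growth factor gene, Eed reads were 56 in EedcKO and 253 in WT, and RNA-Pol2 reads 426 and 166, beside IgG reads of 60 and 30. These promoters were high for RNA-Pol2 in both genotypes, and IgG was higher in EedcKO at both. Cbx3 was chosen by both marks over WT IgG, a ranking that few WT IgG reads raise, so its IgG difference is partly a description of that choice.

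The 10 highest RNA-Pol2 ratios of EedcKO to WT, which chose the genes named here, lay at Tubg1, Retreg3, Zcchc14, Sap30, Atf2, Fahd1, Atraid, Grk4, Csnk2b and Lnpk. Tubg1, which encodes gamma-tubulin, held 299 RNA-Pol2 reads in EedcKO and 70 in WT, beside IgG reads of 52 and 40. Its relative log2 ratio was 1.84 (1.5 to 2.27), and 1.62 with the IgG ratio taken off. Retreg3 starts on the opposite strand of the same locus and shares these reads. Zcchc14, a zinc finger gene, held 288 RNA-Pol2 reads in EedcKO and 72 in WT, but IgG reads of 52 and 13, so its ratio of 1.75 became 0.01 with the IgG ratio taken off. Sap30, a subunit of the Sin3 deacetylase complex, held 296 RNA-Pol2 reads in EedcKO and 77 in WT, beside IgG reads of 52 and 18. Csnk2b, the regulatory subunit of casein kinase 2, held 367 RNA-Pol2 reads in EedcKO and 104 in WT, beside IgG reads of 46 and 26.

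Plcb2, Noxa1 and Tlr5 were among the 10 lowest RNA-Pol2 ratios. Plcb2, a phospholipase C gene of taste and blood cells whose CpG-poor promoter is shown above, held 65 RNA-Pol2 reads in EedcKO and 86 in WT, beside IgG reads of 62 and 41. Its relative log2 ratio was -0.58 (-1.11 to -0.14). Noxa1, an activator of NADPH oxidase, held 60 RNA-Pol2 reads in EedcKO and 71 in WT, beside IgG reads of 59 and 66, so its RNA-Pol2 was close to IgG in both genotypes. Tlr5, the flagellin receptor gene, held 82 RNA-Pol2 reads in EedcKO and 73 in WT, beside IgG reads of 38 and 22. Its relative log2 ratio was -0.03 (-0.52 to 0.42), so it was hardly a decrease. Of the 10 lowest ratios, Plcb2, Noxa1 and Tlr5 had the fewest WT Eed reads, with 11 at Plcb2 and 16 at each of the others. The rest held more, from 24 at Gprc5a to 140 at Syngr2.

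Of Sox2, Emx1, Gad2, Tubb3 and Tle4, all from the forebrain lists, Gad2 had the highest RNA-Pol2 ratio once the IgG ratio was taken off. Sox2 held 217 RNA-Pol2 reads in EedcKO and 80 in WT, beside IgG reads of 30 and 8. Its relative log2 ratio was 1.20 (0.84 to 1.61), and -0.39 with the IgG ratio taken off. Emx1 held 217 RNA-Pol2 reads in EedcKO and 112 in WT, with a ratio of 0.73 (0.40 to 1.08), beside IgG reads of 56 and 40, and with the IgG ratio taken off it was 0.40. Eed reads were 49 in EedcKO and 183 in WT at Sox2, and 63 and 173 at Emx1, so both were at least 2-fold lower in EedcKO. Gad2 held 68 Eed reads in EedcKO and 46 in WT, with a relative log2 ratio of 0.10 (-0.43 to 0.70), and 139 RNA-Pol2 reads in EedcKO against 61 in WT. Its IgG reads were 31 in EedcKO and 29 in WT, and its RNA-Pol2 ratio was 0.95, and 1.0 with the IgG ratio taken off. Tubb3, the neuronal beta-tubulin gene, held 242 RNA-Pol2 reads in EedcKO and 100 in WT, beside IgG reads of 47 and 17, so its ratio of 1.04 became -0.21 with the IgG ratio taken off. Tle4, a Groucho family corepressor gene, held 245 RNA-Pol2 reads in EedcKO and 107 in WT, beside IgG reads of 54 and 23, and its ratio of 0.97 became -0.07. Nrarp, a feedback inhibitor of Notch signalling, held 268 RNA-Pol2 reads in EedcKO and 97 in WT, beside IgG reads of 64 and 23, and its ratio of 1.23 became -0.04. Of the 5 axon guidance members, Eed was at least 2-fold lower at 4, beside 71.9% of all members, and RNA-Pol2 at least 2-fold higher at 2, beside 336 of the 672 members. Plxnc1, a plexin receptor gene, held 56 Eed reads in EedcKO and 337 in WT. Of the 3 channel members, Eed was at least 2-fold lower at 2 and RNA-Pol2 at least 2-fold higher at 0, and nothing is read from counts this small.

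**Figure D5:**
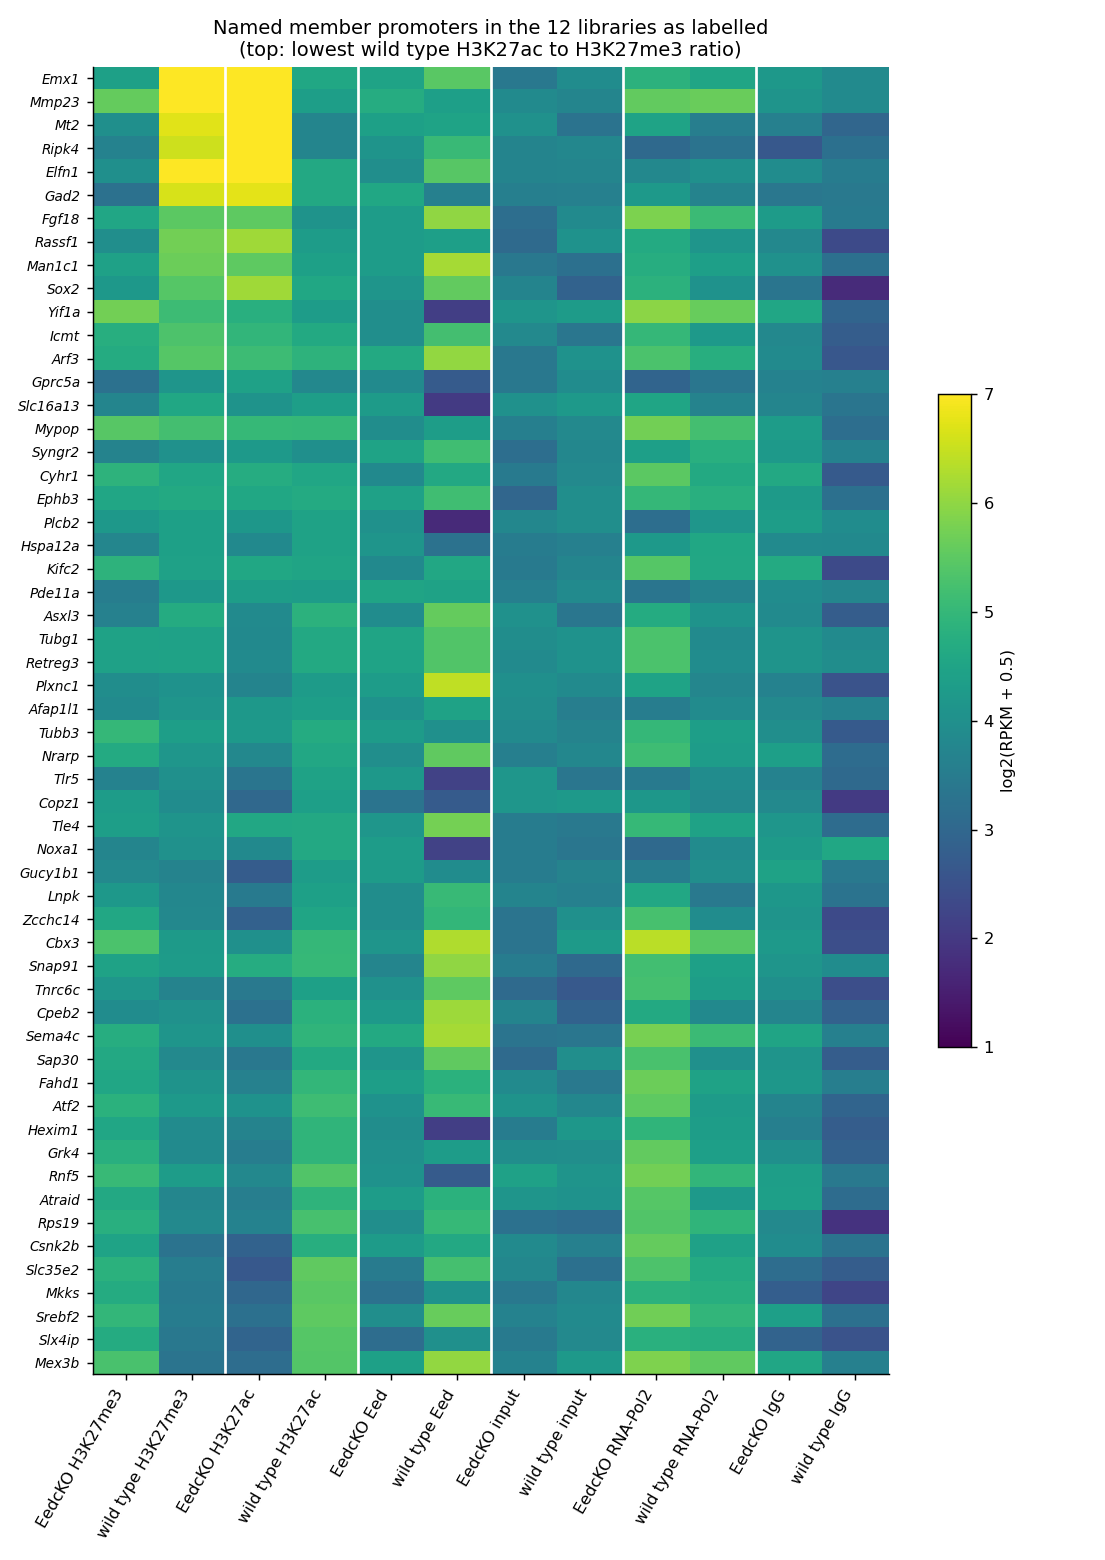
log2(RPKM + 0.5) of the named member promoters (rows) in the 12 libraries as labelled (columns, EedcKO left of wild type for each target). Rows run from Emx1, with the lowest WT ratio of H3K27ac to H3K27me3, to Mex3b, with the highest. The upper rows are bright in WT H3K27me3 and in the library labelled EedcKO H3K27ac, which held 1895 reads at Emx1.

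At the members, both H3K27 libraries labelled EedcKO were set against each WT mark. By label, the median relative log2 ratio was -0.41 for H3K27me3 and 0.01 for H3K27ac. With the library labelled EedcKO H3K27ac set against WT H3K27me3 it was 0.05, and with the library labelled EedcKO H3K27me3 set against WT H3K27ac it was -0.40. The H3K27ac ratio by label ran from -0.48 to 0.76 between the quartiles of the members, so its median of 0.01 covers differences in both directions. Its median was 2.60 with H3K27me3 only and -1.02 with H3K27ac only. For the H3K27me3 ratio by label these medians were -2.32 and 0.46. The medians at the members are therefore not read for either pairing. An exchange of labels was not tested. Since WT levels of both marks chose the members, these ratios are a description. A summit of the library labelled EedcKO H3K27ac stood at 270 members (40.2%, beside 5.92% of all windows), against 79.5% with H3K27me3 only and 2.2% with H3K27ac only. A summit of the library labelled EedcKO H3K27me3 stood at 98 members (14.6%, beside 1.18% of all windows), against 8.16% with H3K27ac only and 0.522% with H3K27me3 only. Both stood at 34 members. At Emx1 the library labelled EedcKO H3K27ac held 1895 reads and the library labelled EedcKO H3K27me3 70, beside 1370 WT H3K27me3 reads and 91 WT H3K27ac reads. At Mex3b the library labelled EedcKO H3K27ac held 61 reads and the library labelled EedcKO H3K27me3 129, beside 59 WT H3K27me3 reads and 161 WT H3K27ac reads.

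The members were ordered by WT H3K27me3 and cut into 4 groups of 168. That library also chose the members, so the values by group are a description. From the lowest to the highest group, WT H3K27me3 had medians of 11.5, 14.3, 17.6 and 28.3 RPKM. The share with a WT RNA-Pol2 summit was 66.1%, 53.6%, 49.4% and 44.0%, and the share with a summit of the library labelled EedcKO H3K27ac was 14.9%, 19%, 45.8% and 81.0%. Median WT H3K27ac had 26.2, 28.2, 27.5 and 24.3 RPKM, and median WT Eed 25.6, 30.3, 27.6 and 30.8 RPKM, so neither followed the order of H3K27me3. The relative RNA-Pol2 ratio of EedcKO to WT had medians of 1.03, 1.08, 1.01 and 0.92, and that of Eed -1.70, -1.63, -1.54 and -1.64. With the IgG ratio taken off, the RNA-Pol2 medians were 0.20, 0.23, 0.26 and 0.20.

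Members with and without a WT RNA-Pol2 summit differed in their median H3K27ac. The 358 members with a WT RNA-Pol2 summit had a median WT H3K27ac of 30.1 RPKM, against 22.6 RPKM at the 314 without one. Their median WT H3K27me3 was 15 RPKM, against 17.1 RPKM without one. A summit of the library labelled EedcKO H3K27me3 stood at 26.3% of the members with a WT RNA-Pol2 summit and at 1.27% of those without. A summit of the library labelled EedcKO H3K27ac stood at 31.0% of the members with a WT RNA-Pol2 summit and at 50.6% of those without, and a WT Eed summit at 91.9% and 86.6%. Across the 672 members, WT RNA-Pol2 had r = 0.64 with WT H3K27ac, -0.12 with WT H3K27me3 and 0.88 with EedcKO RNA-Pol2. WT H3K27me3 and WT H3K27ac had r = -0.15. Over all 55385 windows these values were 0.87, 0.75, 0.89 and 0.72, in the same order. Both WT marks chose the members, so nothing is read from r across the members. These libraries share the windows and their base composition, and overlapping windows share reads.

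Of the 10 miRNA members, the miR-9 genes are known for their part in forebrain neurogenesis. They are shown with mature sequences from RefSeq (GRCm38.p6), in which capitals mark the seed, bases 2 to 8, which pairs with target RNAs.
mmu-miR-9-5p, from Mir9-1 and Mir9-3: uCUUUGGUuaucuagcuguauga
mmu-miR-9-3p, from Mir9-1 and Mir9-3: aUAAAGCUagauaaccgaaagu
mmu-miR-92b-3p, from Mir92b: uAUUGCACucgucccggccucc
The windows are centred on the annotated start of each miRNA, which is not the start of its primary transcript. The Mir9-1 window (chr3:88214598-88216597) held 56 Eed reads in EedcKO and 155 in WT, and is overlapped by the windows of Mir3093 and Gm25641, which are members too. It held 348 H3K27me3 and 123 H3K27ac reads in WT, and 435 reads in the library labelled EedcKO H3K27ac. Its RNA-Pol2 reads were 235 in EedcKO and 91 in WT, beside IgG reads of 68 and 26. Mir9-3 (chr7:79504264-79506263), which gives the same mature sequences, held 139 H3K27me3 and 109 H3K27ac reads in WT, with 55 Eed reads in EedcKO and 140 in WT. Its RNA-Pol2 reads were 306 in EedcKO and 100 in WT, beside IgG reads of 40 and 16. Mir92b (chr3:89226198-89228197) held 90 H3K27me3 and 91 H3K27ac reads in WT, with 54 Eed reads in EedcKO and 27 in WT, fewer in WT than the 155 of Mir9-1 and the 140 of Mir9-3.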

How the data were processed

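The authors deposited, for each of 12 libraries, a table of whole-number read counts in 55385 promoter windows and, for the 8 antibody libraries, a list of summits with a score. The deposited score was read as a −log10 value, the form in which MACS2 writes peak strength; the sources used here do not state whether of a p-value or of a q-value. The tables are named for RPKM, but the deposited values are counts. The build was mm10, per the submitters' processing notes, which name as tools MACS2 2.2.7.1 and Bowtie2 2.4.1, and also ChIPseeker 1.22.1 and deepTools 3.4.0.

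RPKM were computed from the counts, the window length and the library's sum over all windows. Log2 ratios used a pseudocount of 0.5 RPKM at windows whose 2 libraries averaged 1 RPKM or more, and were set relative to the median window tested. Ratios of EedcKO to WT with a control taken off are differences of 2 such ratios and were not set again. Over all windows their median was -0.51 for Eed and 0.07 for RNA-Pol2. The pseudocount shrinks ratios of windows with few reads. A difference of at least 2-fold was counted. The plan had assumed deposited RPKM, and its rules were applied to the converted counts. Intervals are exact Clopper-Pearson intervals at 95% and describe counting error alone, as reads carry no molecular identifiers and are not independent molecules. The calculation was tested on simulated counts. Python 3.11.15, pandas 2.3.3, numpy 2.4.6, scipy 1.17.1 and matplotlib 3.10.9 were used.

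Spreadsheet dates stood in place of 27 symbols in the file of 1 library, 2 of them members, and the spelling of the other tables was used. Gene types and sequences came from RefSeq tables of GRCm38.p6, and 616 members matched a gene type. Symbols of 2 gene families were matched by pattern, and these patterns were narrowed after the files were seen because they also took unrelated genes.

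The members and the 29 gene lists were chosen with earlier results of these data known. Named genes are protein-coding members without Gm and Rik models: the 12 with the largest smaller value of both marks over IgG, the 5 highest and 5 lowest ratios of H3K27ac to H3K27me3, the 10 highest and 10 lowest RNA-Pol2 ratios and the 5 highest and 5 lowest WT Eed over input (the last 2 with at least 50 reads over both libraries), up to 3 members of each list, and the windows on either side of the distance limit. The miRNA windows, Rab33a, and genes given by name alone as list members or markers were named outside this rule, after their values were seen. Alternatives in distance, score, overlap of windows and gene type were computed for every main value, those in pseudocount, filter and scaling for ratios and counts of 2-fold differences, and subtraction of the control for those of EedcKO to WT. A few members are not reported here by name, and are counted in the totals.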

Additional observations from a re-analysis of the deposited data

How the results depend on the processing

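No paired analysis was possible because every library carries the replicate number 1 and each group holds 1 library. Of 140 alternative values for 14 main results, 84 kept their size, 54 moved and 2 reversed; of 97 for 20 named genes, 70 kept their size and 27 moved, 16 of them with the control subtracted and 11 with library totals alone. The cause was not tested except where fewer or more windows entered by construction. Counts with these alternatives are of members only, and the shares of all windows were not computed for them.

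With a distance of 500 bp there were 443 members, 77.0% had a WT Eed summit, WT Eed over input was 2.23, WT RNA-Pol2 over IgG 1.52, and 310 members had at least 2-fold lower Eed. With 2 kb, 93.8% had a WT Eed summit, WT RNA-Pol2 over IgG was 1.38, the RNA-Pol2 ratio of EedcKO to WT 0.97, the H3K27me3 ratio -0.50, the H3K27ac ratio 0.17, and 63 members had higher Eed. With only summits above the median score of each list there were 183 members, 83.1% had an EedcKO RNA-Pol2 summit, WT RNA-Pol2 over IgG was 1.67, the H3K27me3 ratio -0.58 and the H3K27ac ratio 0.40, with Eed lower at 135 and higher at 9 and RNA-Pol2 higher at 94. With 1 window per locus, 49.1% had a WT RNA-Pol2 summit.

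With library totals and no shift, WT Eed over input was 0.99, WT RNA-Pol2 over IgG 1.24, the Eed ratio -0.73 (251 members lower, 72 higher), the RNA-Pol2 ratio 0.59 (52 higher), the H3K27ac ratio -1.02, and the H3K27me3 ratio reversed to 0.44. Scaled to windows without a summit in any library, these were 2.83, 1.74, -2.27 (13 higher), 1.27 (521 higher), -0.34 and -0.21. With the control subtracted, the RNA-Pol2 ratio was 0.11 (74 higher, 71 lower), the H3K27me3 ratio -2.54, the H3K27ac ratio -0.93, and Eed was higher at 109. With the EedcKO library of the other label, the H3K27me3 ratio reversed to 0.05 and the H3K27ac ratio was -0.40. A pseudocount of 0.1 RPKM gave 2.46 for WT Eed over input, -1.73 for the Eed ratio and 1.04 for RNA-Pol2, and 1 RPKM gave 2.15, -1.51 and 0.96. Without the filter on low windows these were 2.22, -1.49 and 0.94, and the H3K27ac ratio was -0.11. With at least 20 reads over both libraries the Eed ratio was -1.79.

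Input held a median of 23 reads per member in EedcKO and 28 in WT, and IgG 49 and 26, so a 2-fold difference from a control at a single member rests on few reads.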
